A study of Mus musculus with 8 samples.

Results

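The 10 genes described here are well-known transcriptional targets of NF-kB in mouse: the chemokines Ccl2, Cxcl1, Cxcl2 and Cxcl10, the adhesion molecules Icam1 and Vcam1, the cytokine Il33, and the feedback regulators Tnfaip3, Nfkbia and Nfkbiz. They were chosen by gene name, 10 of the 27277 genes of the deposited count table, and all 10 were among the 15135 genes that passed the filter on low counts. NF-kB is a family of paired transcription factors that inhibitory proteins of the IkB family hold in the cytoplasm. Signals from TNF, interleukin-1 or Toll-like receptors activate the IkB kinase complex, the inhibitors are degraded, and NF-kB enters the nucleus, binds kappa B sites and switches on genes that draw and capture leukocytes together with genes that shut the pathway down again. In the liver, hepatocytes, Kupffer cells (the resident macrophages), sinusoidal endothelial cells and stellate cells all use this pathway.

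The cells were mouse primary hepatocytes isolated from liver. The knockout cells had the genotype Lcmr1f/f * albumin-cre, a floxed Lcmr1 gene with a Cre recombinase driven by the albumin promoter, which is active in hepatocytes and not in macrophages or endothelial cells. The control cells had the genotype Lcmr1f/f, with the same floxed gene and no Cre named. Cells of both genotypes were cultured for 24 h and given 100 nM glucagon, the fasting hormone, for 12 h, so neither the hormone response nor an inflammatory stimulus can be read from these libraries. Lcmr1 is now called Med19 and belongs to Mediator, which connects DNA-bound activators to RNA polymerase II. There were 3 knockout and 3 control RNA libraries, and 1 chromatin immunoprecipitation (ChIP) library per genotype. Age and sex of the mice, and whether numbered libraries came from separate animals, are not given in the labels, so the p-values reflect the spread among these libraries only, and that spread may be technical. In bulk RNA, fewer cells of a type and less RNA per cell cannot be told apart.

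Gene counts totalled 22191786 to 26595249 per RNA library. Levels are given in CPM, counts scaled to a total of 1e6 per library, with library sizes multiplied by TMM factors, which were 1.216, 1.196 and 1.269 in the knockouts and 0.7725, 0.8375 and 0.8372 in the controls. Med19 was at 3.73 ± 1.33 CPM in the knockouts and 10.5 ± 2.94 CPM in the controls (SD, n = 3 each, log2 fold change -1.50, SE 0.31, edgeR quasi-likelihood test with Benjamini-Hochberg adjusted p = 0.012), over the whole gene and not the deleted exons alone. The 16 hepatocyte markers summed to 36100 to 47200 CPM in the knockouts and 132000 to 159000 CPM in the controls. All 16 fell (median log2 fold change -1.53), where 13.0% of all genes were called lower. On the scale of library size alone 12 of 16 fell, where 4.08% of all genes were called lower. Control replicate 1 stood apart from the other controls. The chi-square per degree of freedom over genes was 150 and 143 between it and control replicates 2 and 3, against 7.41 between those 2, and it was 27.3 to 54.7 among the knockouts.

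Several of the NF-kB targets were high in that library. Counting genes at least 4-fold above both other libraries of the same genotype, a criterion chosen after the values were seen, control replicate 1 held 4 of the 10 targets (40%), namely Cxcl1, Cxcl10, Tnfaip3 and Nfkbiz, and 230 of all 15135 genes tested (1.52%). The other 5 libraries held none of the 10 and between 0.0396% and 0.330% of all genes. For each of the 10 targets the fit without control replicate 1, which rests on 2 controls, is therefore given as well. Because that library was singled out from these same values, leaving it out raises the fold change of targets high in it by construction. The calls and the median of that fit therefore describe the values and are not support for a change. Relative to the mean of control replicates 2 and 3, control replicate 1 had 28.7 times the Tnfaip3 level, 10.1 times the Cxcl10 level, 6.26 times the Cxcl1 level, 4.97 times the Nfkbiz level and 4.06 times the Icam1 level. The same ratio was 2.0 for Cxcl2, 1.65 for Ccl2, 1.18 for Vcam1, 1.06 for Nfkbia and 0.792 for Il33. What set this library apart was not tested.

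**Figure D1:**
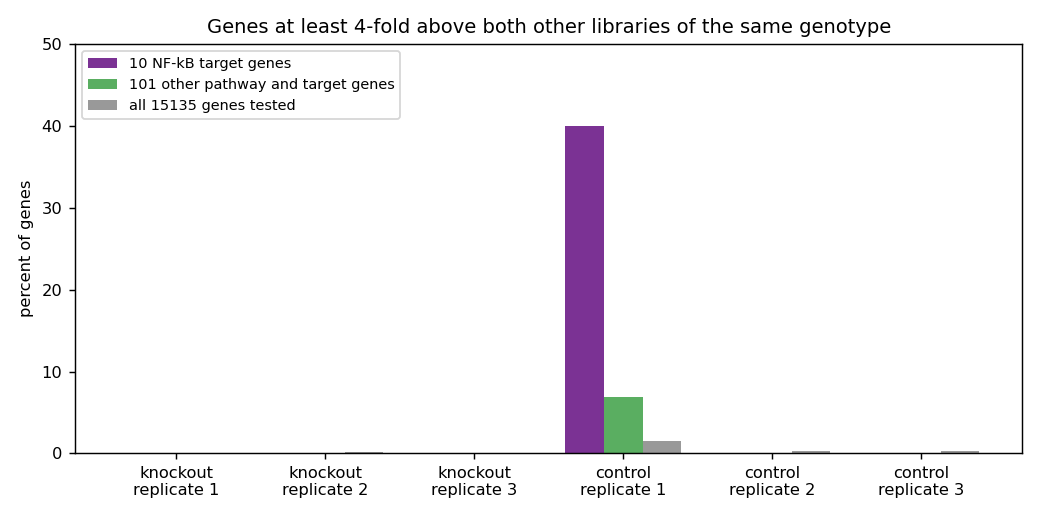
Percent of genes, for each of the 6 RNA libraries on the x axis, whose CPM was at least 4-fold above both other libraries of the same genotype, among the 10 NF-kB targets, 101 other genes of the pathway and its targets, and all 15135 genes tested. Control replicate 1 held 40% of the targets and 6.93% of the other pathway genes against 1.52% of all genes, and no other library held any of the targets.

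Promoter windows from RefSeq (build GRCm38.p6, 250 bases before to 50 after the gene start) were given for 7 of the 10 genes, all but Ccl2, Vcam1 and Nfkbiz, in 9 windows. They were searched on both strands for the kappa B consensus GGGRNNYYCC, a decamer form of the sites that NF-kB dimers bind, with no mismatch allowed. In it R is A or G, Y is C or T, and N is any base. The 5 windows below, of 5 genes, hold it, against 8.46% of 32851 windows in the table. The genes were chosen as known NF-kB targets, so more matches than in the average window follow from that choice and are not a result. The windows of Icam1 and Il33 and the second window of Tnfaip3 hold none, which says only that those letters are not there. The Icam1 window does hold TGGAAATTCC, which differs from the consensus only in its first letter, so near matches were missed by this search. The sequences are shown because they hold the consensus, with the matches in capitals. A match describes the letters and is not a measured binding site.

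Cxcl1 promoter, chr5:90890995-90891294 (+): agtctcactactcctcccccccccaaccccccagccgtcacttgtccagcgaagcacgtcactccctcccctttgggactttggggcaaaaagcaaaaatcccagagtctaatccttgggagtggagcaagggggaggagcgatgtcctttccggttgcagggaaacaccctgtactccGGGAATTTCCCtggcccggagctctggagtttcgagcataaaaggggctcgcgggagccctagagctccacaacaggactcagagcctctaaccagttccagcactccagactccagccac
Cxcl2 promoter, chr5:90903649-90903948 (+): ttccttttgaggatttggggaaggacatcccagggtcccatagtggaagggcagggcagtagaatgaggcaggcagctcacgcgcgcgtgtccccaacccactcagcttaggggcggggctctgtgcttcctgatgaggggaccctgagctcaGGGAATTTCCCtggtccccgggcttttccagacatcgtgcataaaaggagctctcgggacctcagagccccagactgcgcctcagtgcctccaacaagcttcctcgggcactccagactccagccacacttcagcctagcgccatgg
Cxcl10 promoter, chr5:92348840-92349139 (-): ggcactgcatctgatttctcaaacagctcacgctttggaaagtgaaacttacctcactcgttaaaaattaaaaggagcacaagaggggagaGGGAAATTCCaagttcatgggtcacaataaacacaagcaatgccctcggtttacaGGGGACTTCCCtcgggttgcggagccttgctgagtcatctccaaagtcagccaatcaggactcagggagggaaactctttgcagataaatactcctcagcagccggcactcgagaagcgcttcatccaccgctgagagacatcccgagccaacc
Tnfaip3 promoter, chr10:19015361-19015660 (-): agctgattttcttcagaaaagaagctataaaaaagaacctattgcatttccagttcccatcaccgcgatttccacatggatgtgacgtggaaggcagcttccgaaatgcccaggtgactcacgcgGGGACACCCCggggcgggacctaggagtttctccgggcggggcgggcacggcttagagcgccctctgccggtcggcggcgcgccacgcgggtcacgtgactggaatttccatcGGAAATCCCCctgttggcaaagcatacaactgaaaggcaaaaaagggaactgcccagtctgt
Nfkbia promoter, chr12:55492598-55492897 (-): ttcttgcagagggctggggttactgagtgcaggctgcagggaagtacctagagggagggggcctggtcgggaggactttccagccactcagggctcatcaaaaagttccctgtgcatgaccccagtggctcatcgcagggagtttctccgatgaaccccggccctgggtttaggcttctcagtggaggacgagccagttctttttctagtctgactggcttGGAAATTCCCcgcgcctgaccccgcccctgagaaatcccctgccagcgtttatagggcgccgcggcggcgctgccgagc

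Cxcl1 and Cxcl2, neighbouring genes on chromosome 5 whose bodies lie 10755 bases apart, hold the same 11 capital letters, GGGAATTTCCC. In each this is a pair of overlapping matches on opposite strands, starting at positions -71 and -70 in Cxcl1 and -97 and -96 in Cxcl2, counted from the RefSeq start base as 0. The longest run that both windows share is 20 bases, GCACTCCAGACTCCAGCCAC, starting at position 30 in Cxcl1 and 10 in Cxcl2. In Cxcl1 it ends at the last base of the window, which may cut it short. Cxcl10 has matches at -159, -104 and -103, the last pair overlapping, Tnfaip3 at -125 and -12, and Nfkbia at -29. At least 2 matches, overlapping pairs included, occur in 1.22% of all windows, a comparison with the same limit from the choice of genes.

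Over the 10 genes, edgeR called 3 higher in the knockout, Vcam1, Cxcl2 and Il33, and 1 lower, Nfkbia, at an adjusted p under 0.05 over all genes tested. Across all genes 25.5% were called, 12.6% higher and 13.0% lower. The median log2 fold change of the 10 was -0.23, against 0.01 for all genes tested. Without control replicate 1 the calls were 4 higher, Vcam1, Cxcl2, Icam1 and Tnfaip3, and 2 lower, Cxcl1 and Nfkbia, with 31.3% of all genes called (15.3% higher, 16.0% lower), and the median was 1.03 against 0.04. With library size alone as the scale, which moved the median of all genes to 0.60, 3 were called higher and none lower, Nfkbia being at 0.05 (edgeR adjusted p = 0.751), against 55.0% of all genes called, 50.9% higher and 4.08% lower. DESeq2 called the same 4 genes as edgeR and Cxcl1 lower, with 30.4% of all genes called (14.5% higher, 15.9% lower). It gave no p-value for Tnfaip3 and so could not call that gene. All changes below are stated on the TMM scale, that is, against the bulk of genes. The values of the 2 genotypes did not overlap for 5 of the 10, Cxcl1, Cxcl2, Vcam1, Il33 and Nfkbia, and for 45.9% of all genes.

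**Figure D2:**
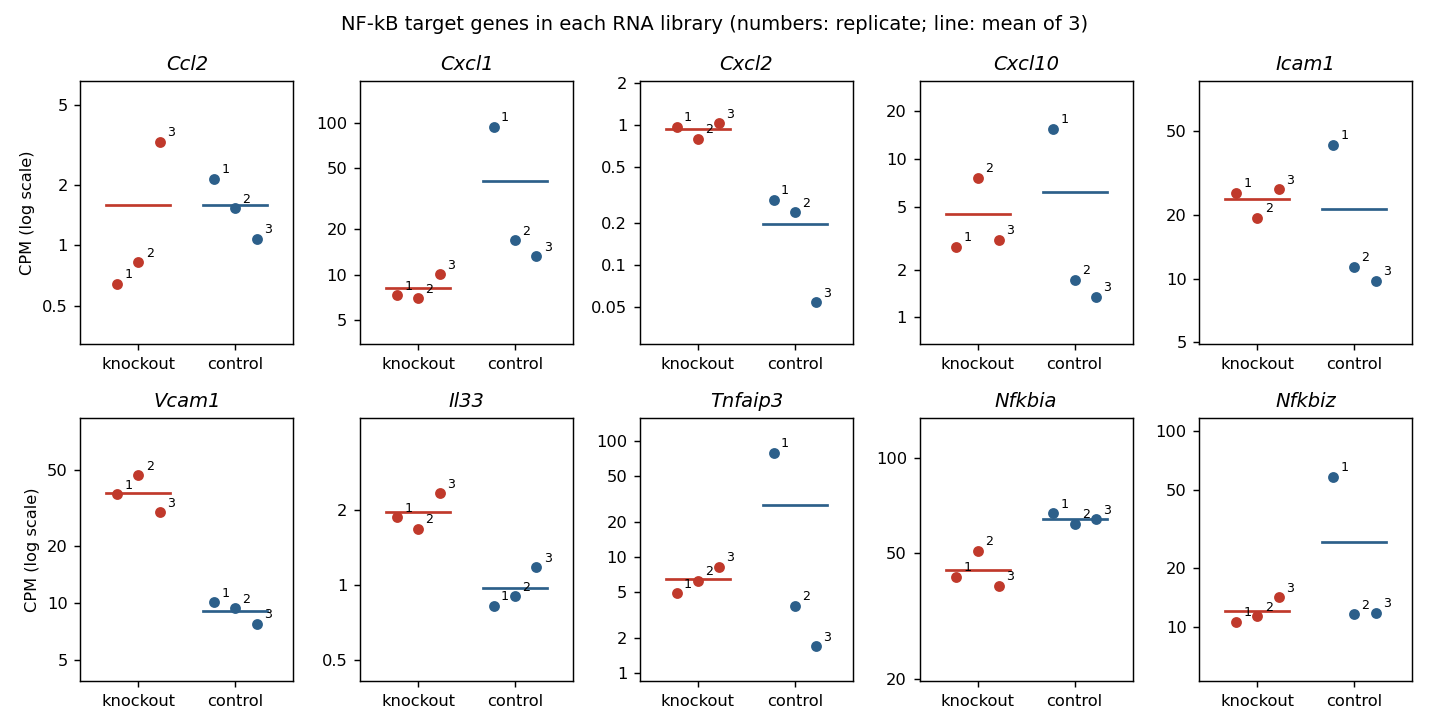
CPM of each of the 10 genes in each RNA library on a log scale, knockouts left of controls, each point a library. Control replicate 1 is the highest control for 9 of the 10 genes, while the knockouts of Vcam1, at 29.9 to 47.0 CPM, all lie above its controls at 7.76 to 10.1 CPM.

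The neutrophil-attracting chemokines Cxcl1 and Cxcl2, ligands of the receptor Cxcr2, did not move together: Cxcl2 rose, and the knockouts lay below the controls for Cxcl1. Cxcl1 (ENSMUSG00000029380, chromosome 5, 90891241 to 90893115, mm10, plus strand) had 7.30, 6.96 and 10.1 CPM in the knockouts, against 94.0, 16.8 and 13.2 CPM in the controls. Every knockout lay below every control, and control replicate 1 was far above all the others. The log2 fold change was -2.35 (SE 0.83, 95% interval -4.42 to -0.27), which did not pass the edgeR test (adjusted p = 0.0939) and passed with DESeq2 (-2.36, adjusted p = 0.0282). Without control replicate 1 it was -0.89 with a narrower error (SE 0.21, interval -1.36 to -0.42) and passed the edgeR test (adjusted p = 0.0116).

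Cxcl2 (ENSMUSG00000058427, chromosome 5, 90903871 to 90905938, plus strand) was scarce, with 30, 25 and 33 counts in the knockouts against 6, 5 and 1 in the controls. In CPM these were 0.969, 0.794 and 1.03 in the knockouts, against 0.292, 0.238 and 0.0539 in the controls. The knockouts all lay above the controls, and Cxcl2 reached the count filter through the knockouts alone. It rose 4.61-fold (log2 fold change 2.2, SE 0.50, interval 1.04 to 3.36, edgeR adjusted p = 0.0171). The call held without control replicate 1 (2.59, edgeR adjusted p = 0.0118) and ended without knockout replicate 1 (2.16, adjusted p = 0.0635), knockout replicate 3 (2.11, 0.0558) or control replicate 2 (2.36, 0.0518). Their shared receptor gene, Cxcr2, had 0.518 ± 0.155 CPM in the knockouts and 0.236 ± 0.173 CPM in the controls (SD, n = 3 each, edgeR adjusted p = 0.213). Cxcr2 too reached the count filter through the knockouts alone (17, 11 and 21 counts, against 8, 1 and 5 in the controls). With library size alone, where 50.9% of all genes were called higher, it passed (edgeR adjusted p = 0.0423).

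Cxcl10, which draws T and natural killer cells through the receptor Cxcr3 and answers interferons as well as NF-kB, lies on chromosome 5 (ENSMUSG00000034855, 92346638 to 92348889, minus strand). Its levels were 2.78, 7.62 and 3.09 CPM in the knockouts, against 15.5, 1.72 and 1.35 CPM in the controls. Control replicate 1 was above all knockouts, and the other controls were below all of them. The log2 fold change was -0.46 (SE 1.00, interval -2.90 to 1.97, edgeR adjusted p = 0.766) with all libraries and 1.54 (SE 0.51, edgeR adjusted p = 0.0558) without control replicate 1, so the direction turned and neither value passed. The gene overlaps Art3 on the other strand, which had 371 counts over all libraries. Beside it, Cxcl11, a ligand of the same receptor, rose 3.43-fold, with 6.94, 6.19 and 6.98 CPM in the knockouts against 3.17, 1.43 and 1.24 CPM in the controls (edgeR adjusted p = 0.0101). Cxcl9, the third chemokine of that locus, had 8.45 ± 1.03 CPM in the knockouts and 5.36 ± 2.52 CPM in the controls (SD, n = 3 each, edgeR adjusted p = 0.195). With library size alone, where 50.9% of all genes were called higher, Cxcl9 passed (log2 fold change 1.23, edgeR adjusted p = 0.0229).

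Ccl2, the main attractant of monocytes through Ccr2 (ENSMUSG00000035385, chromosome 11, 82035571 to 82037453, plus strand), had 0.646, 0.826 and 3.27 CPM in the knockouts, against 2.14, 1.53 and 1.08 CPM in the controls. Knockout replicate 3 was the highest of all libraries and knockout replicates 1 and 2 were the lowest. The fitted fold of knockout over control was 0.999, with an interval of the log2 fold change from -1.48 to 1.48 (edgeR adjusted p = 0.999), which is wide enough to hold a doubling or a halving. It was 0.36 on the log2 scale without knockout replicate 1, -1.12 without knockout replicate 3 and 0.27 without control replicate 1 (edgeR adjusted p = 0.809), and passed in none of these fits. Of the other chemokines beside Ccl2, Ccl7, Ccl8, Ccl11 and Ccl12 did not reach the count filter.

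Vcam1 had the smallest adjusted p of the 10 genes and rose about as much as Cxcl2, at far more counts. It encodes the ligand of integrin alpha-4 beta-1, which holds monocytes and lymphocytes on activated endothelium and on liver macrophages, and lies on chromosome 3 (ENSMUSG00000027962, 116109949 to 116129688, minus strand). It had 37.1, 47.0 and 29.9 CPM in the knockouts, against 10.1, 9.39 and 7.76 CPM in the controls, which gave 38.0 ± 8.56 and 9.08 ± 1.19 CPM (SD, n = 3 each). All 3 knockouts lay well above all 3 controls, and control replicate 1 sat with the other controls. Vcam1 rose 4.18-fold (log2 fold change 2.06, SE 0.20, interval 1.61 to 2.52, edgeR adjusted p = 0.000622). It was called in each of the 6 fits that left out a library, with log2 fold changes of 1.87 to 2.2 and edgeR adjusted p of 0.000254 to 0.00597 (2.14 and 0.000254 without control replicate 1).

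Icam1, the ligand of the beta-2 integrins of leukocytes, lies on chromosome 9 (ENSMUSG00000037405, 21015985 to 21028817, plus strand). It had 25.5, 19.4 and 26.5 CPM in the knockouts, against 43.1, 11.4 and 9.80 CPM in the controls. Control replicate 1 was above all knockouts and the other controls were below them. With all libraries the log2 fold change was 0.15 (SE 0.58, interval -1.27 to 1.57, edgeR adjusted p = 0.874). Without control replicate 1, Icam1 passed the edgeR test as 2.23-fold higher (log2 fold change 1.16, SE 0.18, interval 0.76 to 1.56, adjusted p = 0.00162), and without control replicate 2 or 3 its sign was negative, at -0.16 and -0.20. Vcam1 and Icam1 thus differed in how control replicate 1 stood to the knockouts, below them for Vcam1 and above them for Icam1.

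Il33, an alarmin of the interleukin-1 family kept in cell nuclei and released by damage, lies on chromosome 19 (ENSMUSG00000024810, 29925114 to 29960718, plus strand). It was scarce, with 1.87, 1.68 and 2.34 CPM in the knockouts, against 0.828, 0.906 and 1.18 CPM in the controls. The knockouts all lay above the controls, and control replicate 1 was the lowest library. Il33 rose 2.02-fold at the edge of the threshold (log2 fold change 1.01, SE 0.29, interval 0.34 to 1.69, edgeR adjusted p = 0.0394). Leaving out any 1 library ended the call, with edgeR adjusted p of 0.0649 to 0.118 and log2 fold changes of 0.86 to 1.17 (0.91, 0.0649 without control replicate 1), and so did omitting the count filter (0.0651). Its receptor gene, Il1rl1, did not reach the count filter.

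**Figure D3:**
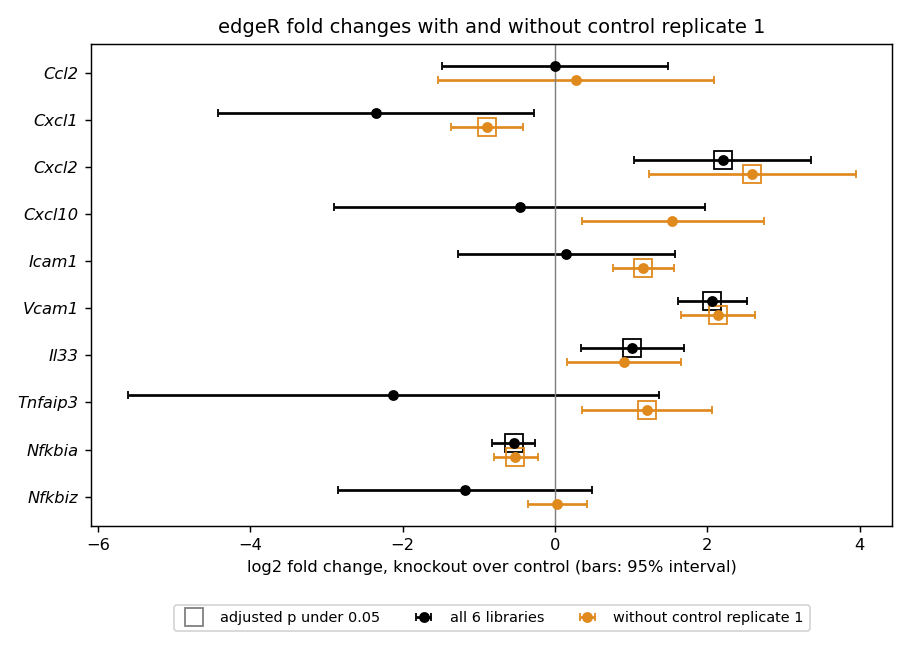
Log2 fold change of knockout over control for each of the 10 genes, with 95% intervals as bars, from edgeR with all 6 libraries (black) and without control replicate 1 (orange), with squares on values with an adjusted p under 0.05. Tnfaip3, Cxcl10 and Nfkbiz lie below 0 with all libraries and above 0 without that control, while Vcam1, Cxcl2, Il33 and Nfkbia keep their direction.

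The 3 feedback regulators did not share a pattern. Nfkbia encodes IkB-alpha, the inhibitor that NF-kB itself induces, and lies on chromosome 12 (ENSMUSG00000021025, 55489410 to 55492647, minus strand). It had 42.1, 51.0 and 39.5 CPM in the knockouts, against 67.0, 61.9 and 64.0 CPM in the controls. All knockouts lay below all controls, and the controls were within 1.08-fold of each other. Nfkbia fell by 0.54 on the log2 scale (SE 0.12, interval -0.83 to -0.26, edgeR adjusted p = 0.0174), and by 0.52 without control replicate 1 (0.0152). The call ended without knockout replicate 1 (adjusted p = 0.0702), knockout replicate 3 (0.0546) or control replicate 3 (0.0544), and on the scale of library size alone, as given above.

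Tnfaip3 encodes A20, the ubiquitin-editing enzyme that stops signals on their way to the IkB kinase (ENSMUSG00000019850, chromosome 10, 19000910 to 19015657, minus strand). It had 151, 198 and 266 counts in the knockouts, against 1630, 80 and 32 counts in the controls. In CPM it stood at 4.88, 6.29 and 8.29 in the knockouts, against 79.4, 3.81 and 1.72 in the controls. The control values spanned 46.1-fold, where the median gene spanned 1.38-fold, and the knockouts lay between control replicate 1 and the other controls. The log2 fold change was -2.13 with all libraries (SE 1.40, interval -5.61 to 1.36, edgeR adjusted p = 0.314), and -0.27 with the replicate number as a block (0.922). Without control replicate 1, Tnfaip3 passed the edgeR test in the other direction, 2.32-fold higher in the knockouts (log2 fold change 1.21, SE 0.37, interval 0.36 to 2.06, adjusted p = 0.0386). The authors' deposited table gives it a log2 fold change of -2.15 and no p-value.

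Nfkbiz encodes IkB-zeta, a nuclear member of the IkB family that acts as a coactivator at secondary NF-kB targets (ENSMUSG00000035356, chromosome 16, 55811375 to 55838899, minus strand). Its levels were 10.6, 11.3 and 14.2 CPM in the knockouts, against 58.3, 11.6 and 11.8 CPM in the controls. Control replicate 1 was above all the others, which lay close together whatever the genotype. The log2 fold change was -1.18 (SE 0.68, interval -2.85 to 0.48, edgeR adjusted p = 0.25), and without control replicate 1 it was 0.03 (interval -0.36 to 0.42, edgeR adjusted p = 0.911). The authors' deposited table marks 4 of the 10 genes as significant, Cxcl1 (log2 fold change -2.37, adjusted p = 0.0348), Cxcl2 (2.22, 0.0075), Vcam1 (2.05, 9.5e-17) and Il33 (1.01, 0.0411). Nfkbia is not marked in the authors' deposited table, though it stands there at -0.55 with adjusted p = 0.00597.

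The rest of the pathway was described over 124 genes, of which 101 were tested, with 9 higher and 12 lower, where 12.6% and 13.0% of all genes were, and a median log2 fold change of -0.02, against 0.01. Without control replicate 1 there were 16 higher and 15 lower of 104 tested (15.3% and 16.0% of all genes; median 0.09), and with library size alone 46 higher and 4 lower of 101 (50.9% and 4.08% of all genes). These counts are near the shares of all genes, which are also the background of the shorter lists that follow. Of 5 ligand genes tested, none passed the edgeR test (1 had an unadjusted p under 0.05, and DESeq2 called 1 lower). Il18, the most abundant of them, stood at 6.07 ± 1.36 CPM in the knockouts and 9.35 ± 1.68 CPM in the controls (SD, n = 3 each, log2 fold change -0.62, edgeR adjusted p = 0.0809), and passed without control replicate 1 (-0.77, 0.025). The ligand genes Il1a and Il1b were among the 7 of 101 genes that control replicate 1 held at least 4-fold above the other controls. Il1b had 0.678, 2.73 and 4.27 CPM in the knockouts, against 6.43, 0.715 and 0.485 CPM in the controls.

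Of 27 receptors and adaptors tested, 2 rose and 5 fell, against 10 and 2 with library size alone. Tirap, the adaptor that brings MyD88 to Toll-like receptors at the membrane, fell to 8.25 ± 1.40 CPM in the knockouts, against 24.0 ± 1.36 CPM in the controls (SD, n = 3 each, log2 fold change -1.54, edgeR adjusted p = 0.000823). Il1rap, the accessory chain that the interleukin-1 and Il33 receptors share, fell to 85.3 ± 6.09 CPM in the knockouts, against 173 ± 31.5 CPM in the controls (-1.02, 0.00353), a call that ended on the scale of library size alone (-0.44, 0.0531). The interleukin-1 receptor gene Il1r1 fell as well, with 26.3, 31.6 and 20.3 CPM in the knockouts against 166, 72.7 and 69.5 CPM in the controls (log2 fold change -1.98, edgeR adjusted p = 0.0118), a call that ended without knockout replicate 1 (0.0502) or without the count filter (0.0702). The Toll-like receptor genes Tlr6 (2.43, 0.0256) and Tlr3 (1.02, 0.0497) rose, and these calls ended in 4 and 5 of the 6 fits that left out a library. Tlr6, with 16, 26 and 54 counts in the knockouts against 4, 2 and 5 in the controls, reached the count filter through the knockouts alone, and its log2 fold change was 1.83 without knockout replicate 3.

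Of 13 kinase genes and their partners, 1 rose and 4 fell, against 6 and 1 with library size alone. Ikbkg, the regulatory subunit NEMO of the IkB kinase, fell to 69.5 ± 6.25 CPM in the knockouts, against 104 ± 2.72 CPM in the controls (SD, n = 3 each, log2 fold change -0.58, edgeR adjusted p = 0.00734), and had 0.01 on the scale of library size alone. The related kinase Ikbke fell to 13.0 ± 1.21 CPM in the knockouts, against 44.7 ± 15.8 CPM in the controls (-1.78, 0.00242). Chuk, the catalytic subunit IKK-alpha, and Map3k14, the kinase of the non-canonical branch, also fell (Chuk -0.54, edgeR adjusted p = 0.011; Map3k14 -1.15, 0.0465). The call of Chuk ended without knockout replicate 1 (0.0502) and that of Map3k14 in 4 of the 6 fits that left out a library (0.0565 to 0.127) and with upper-quartile factors (0.052). With library size alone neither passed, Chuk turning to 0.05 (0.733) and Map3k14 being at -0.54 (0.187). Tab1, a partner of the kinase TAK1, rose to 13.1 ± 2.72 CPM in the knockouts, against 4.52 ± 1.04 CPM in the controls (1.53, 0.00395).

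None of the 5 subunit genes of NF-kB passed the edgeR test, while 2 had an unadjusted p under 0.05 and DESeq2 called Rela lower. Rela, the main activating subunit p65, had 94.3, 78.9 and 78.7 CPM in the knockouts, against 188, 103 and 104 CPM in the controls (log2 fold change -0.65, edgeR adjusted p = 0.0871). Without control replicate 1 Rela was at -0.31 (0.0659), and Nfkb1 and Nfkb2 were called higher. Of 16 other inhibitors tested, Tnip1, a partner of A20, rose (0.72, edgeR adjusted p = 0.00887), and Otulin, which removes linear ubiquitin chains, fell (-0.77, edgeR adjusted p = 0.0138), a call lost in 2 fits that left out a knockout and on the scale of library size alone (-0.17), where 8 of the 16 were called higher and none lower.

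Of 35 other NF-kB targets tested, 5 rose and 2 fell, against 19 and 1 with library size alone. Tapbp, which loads peptides on MHC class I, rose to 188 ± 14.2 CPM in the knockouts, against 94.7 ± 5.80 CPM in the controls (SD, n = 3 each, log2 fold change 0.99, edgeR adjusted p = 0.00111). Gadd45b, a stress gene that restrains cell death, rose to 40.9 ± 8.58 CPM in the knockouts, against 6.33 ± 4.56 CPM in the controls (2.69, 0.00985), and without control replicate 1, the highest control, its log2 fold change was 3.46 (2.6e-05). Complement C3 fell to 4280 ± 690 CPM in the knockouts, against 13800 ± 4930 CPM in the controls (-1.69, 0.00404), and the survival gene Bcl2l1 fell (log2 fold change -0.45, edgeR adjusted p = 0.0362) and had 0.14 on the scale of library size alone. The call of Bcl2l1 ended in 4 of the 6 fits that left out a library, and that of Gadd45b without the count filter (0.058).

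Among 12 tested genes of chemokine receptors and integrin chains, not all of them receptors of the 10 targets, 4 rose and none fell. Of those 4, Ccr2 (20, 28 and 36 counts in the knockouts against 6, 9 and 7 in the controls) and Ackr3 (18, 31 and 29 against 6, 1 and 6) reached the count filter through the knockouts alone. With library size alone 8 rose and none fell. Itgal and Itgb2, the chains of the leukocyte integrin LFA-1 that binds Icam1, rose, Itgal by 0.78 (edgeR adjusted p = 0.0093) and Itgb2 by 0.94 (0.0127) in log2 terms. Ccr2, the receptor of Ccl2, had 0.886 ± 0.238 CPM in the knockouts and 0.366 ± 0.0691 CPM in the controls (SD, n = 3 each, edgeR adjusted p = 0.0475), and Ackr3, a scavenging receptor of Cxcl11 and Cxcl12, also rose (1.89, 0.0451). The call of Itgb2 ended without knockout replicate 2 (0.0511) or control replicate 3 (0.0522), that of Ackr3 in 5 of the 6 fits that left out a library, and that of Ccr2 in all 6 (edgeR adjusted p of 0.0691 to 0.141) and with DESeq2 (0.071). Itga4, whose product is the alpha chain of the Vcam1 receptor, averaged 2.19 ± 0.765 CPM in the knockouts and 2.45 ± 0.806 CPM in the controls (edgeR adjusted p = 0.784). Of 38 chemokine genes counted, 19 were tested, with 4 higher and 2 lower (9 and 0 with library size alone): Cxcl2, Cxcl11, Ccl6 (1.31, edgeR adjusted p = 0.0118) and Ppbp (1.70, 0.045) rose, and Cxcl12 (-0.59, 0.00956) and Ccl9 (-0.49, 0.0348) fell. Ppbp, like Cxcl2, reached the count filter through the knockouts alone (29, 25 and 34 counts, against 10, 2 and 5 in the controls), and was at 2.35 without control replicate 1. The calls of Ppbp and Ccl9 each ended in 5 of the 6 fits that left out a library, and that of Cxcl12 on the scale of library size alone (0.981). Ppbp lies in the same locus as Cxcl1 and Cxcl2, and Pf4, beside it, had a log2 fold change of 1.63 that did not pass (edgeR adjusted p = 0.181) except with library size alone (0.0479).

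Of the markers of other cells that a hepatocyte preparation can hold, 14 of 22 macrophage markers were called higher and at most 3 of any other type. Of all genes tested, 12.6% were called higher. The 22 macrophage markers summed to 957 to 1140 CPM in the knockouts and 500 to 601 CPM in the controls, and none was called lower, with a median log2 fold change of 0.77. The 18 endothelial markers summed to 613 to 913 CPM in the knockouts and 546 to 656 CPM in the controls, and 1 of 18 rose, Lyve1. Of 16 tested stellate cell and fibroblast markers 3 rose, with sums over 17 genes of 481 to 560 CPM in the knockouts and 281 to 513 CPM in the controls. The 10 bile duct markers summed to 124 to 158 CPM in the knockouts and 114 to 234 CPM in the controls, where 1 of 9 tested rose. Neutrophil markers summed to 5.34 to 13.5 CPM in the knockouts and 3.66 to 11.8 CPM in the controls, with none of 3 tested called. Lymphocyte markers summed to 6.77 to 12.4 CPM in the knockouts and 3.85 to 7.49 CPM in the controls, with none of 9 tested called. On the scale of library size alone 19 of 22 macrophage, 17 of 18 endothelial and 11 of 16 stellate cell or fibroblast markers were called higher. On that scale 50.9% of all genes were called higher. No marker was at 0 in all libraries. In control replicate 1 the macrophage sum was 500 CPM, the lowest of the 6, and its hepatocyte sum of 159000 CPM was the highest. Within that sum Fga was at 19000 CPM, against 6390 and 6090 CPM in the other controls, and Fgb at 14100 CPM, against 4620 and 4510 CPM. Alb, the most abundant of these 3, was at 74400 CPM and not higher than in the other controls, at 75000 and 75800 CPM. The part of these cells in the levels of Vcam1, Icam1, Cxcl2, Il33 and the integrin genes was not tested.

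**Figure D4:**
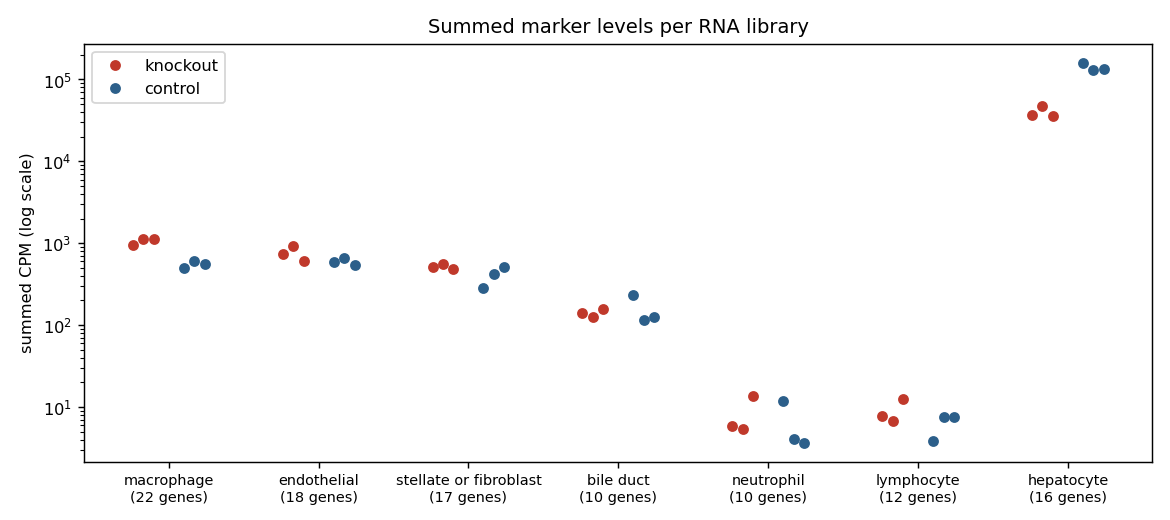
Summed CPM of the marker genes of 7 cell types in each RNA library on a log scale, knockouts left of controls, each point a library. The macrophage sums of the knockouts, 957 to 1140 CPM, all lie above those of the controls, 500 to 601 CPM, and the hepatocyte sums lie below.

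The genes whose profile over the 6 libraries was most like each target were sought by the root-mean-square difference of centred log2 CPM (0 is an identical profile). The nearest to Vcam1 were Grin3b (0.13), Plekha4 (0.14) and Uck2 (0.16), and the nearest to Icam1 were Csrnp1 (0.10), Bcl6b (0.13) and Cfap43 (0.16). Tnfaip3 was most like Fosb (0.28), Socs1 (0.47) and Hoxa5 (0.51), Nfkbiz like Apcs (0.10), Klf6 (0.15) and Id2 (0.16), and Cxcl1 like Ddit3 (0.20), Lrg1 and Serpina3n (both 0.23). Fosb, for example, had 0.484, 0.635 and 0.810 CPM in the knockouts, against 14.0, 0.477 and 0.215 CPM in the controls. Cxcl10 was most like Ier3 (0.37), Cxcl2 like Gm26714 and Plekhh1 (both 0.13), Il33 like Aldh3b1 (0.07), Nfkbia like Otud6b (0.03) and Ccl2 like Lilrb4a (0.22). Among the targets themselves, Cxcl1 lay 0.54 from Nfkbiz and 2.01 from its neighbour Cxcl2, and Cxcl2 lay 0.46 from Vcam1.

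The ChIP lists add the position of enriched regions, with 1 library per genotype and hence no test. The series design names Lcmr1 as the protein precipitated, while the sample titles name RNA polymerase III, so the target is left as ChIP signal here. The knockout list holds 1309 regions over 669222 bases and the control list 16995 regions over 10414789 bases. A region lay over 1 of the 10 genes in the knockout list, Nfkbia, and over 3 of 10 in the control list, Nfkbia, Nfkbiz and Cxcl1. Of all genes tested, 3.90% had a region in the knockout list and 39.2% in the control list, and of those within the length range of the 10 genes 4.46% and 39.1%, so the counts of these genes are near the background of each list. The fold over background and -log10 q below are the authors' own values of each summit.

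Nfkbia was the gene with regions in both lists. The knockout region (chromosome 12, 55491815 to 55492207) had its summit 652 bases into the gene, with a fold of 7.88 and a -log10 q of 7.98. The control region there was wider (55491694 to 55492701, 1008 bases), with a summit at 665 bases (fold 12.0, -log10 q 21.6) and another at 85 bases (fold 6.74, -log10 q 11.7). It covers the kappa B match at -29 printed above, and the knockout region does not. A second control region lay toward the end of the gene, with a summit at 2730 bases (fold 6.0). Cxcl1 had 1 control region (chromosome 5, 90891110 to 90891541) with its summit 57 bases past the gene start and the lowest fold and -log10 q of these summits, 3.95 and 2.22. That region contains the GGGAATTTCCC of the Cxcl1 promoter. Nfkbiz had 3 control regions, with summits 16801 to 24765 bases into the gene, toward its end, the strongest at 16801 bases (fold 8.1, -log10 q 18.9). The other 7 genes, Vcam1 and Icam1 among them, had a region in neither list, and the summit nearest the Vcam1 start lay at -532939 in the knockout and -383473 in the control list, in bases before the start.

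**Figure D5:**
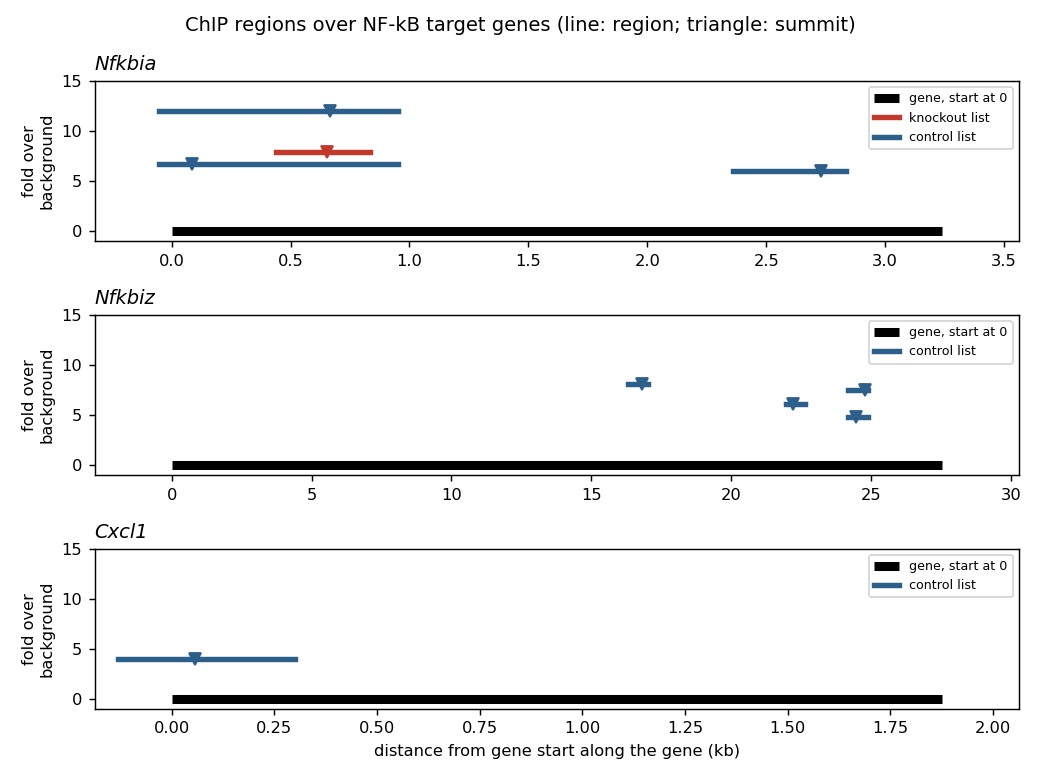
ChIP regions over the 3 NF-kB target genes that have one, by distance from the gene start in kb on the x axis and fold over background on the y axis, with triangles at summits, knockout list in red and control list in blue. Nfkbia has a knockout region at a fold of 7.88 inside a wider control region with summits at folds of 12.0 and 6.74, and Nfkbiz and Cxcl1 have control regions only.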

How the data were processed

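RNA was measured in 3 knockout and 3 control libraries and ChIP in 1 library per genotype, grouped by the sample titles and genotypes in the labels. The 10 genes, the gene lists and the tests were chosen with earlier results of these data known. The RNA table deposited by the authors gives raw counts for each Ensembl gene (mm10), and per the submitters' processing notes HISAT2 2.1.0, Bowtie2 2.2.3 and HTSeq 0.6.0 were used, whose roles and strand setting are not stated there. Without strand, reads of genes that overlap on opposite strands cannot be told apart, as for Cxcl10 and Vcam1. The gene that overlaps Vcam1, Gm43109, had only 2 counts over all libraries. The same deposited table carries the authors' comparison, with a mean normalized signal per gene, a linear fold (ratio), its log2 value and p-values. The ChIP lists give, as deposited by the authors, a score, a fold over background (ratio) and -log10 p- and q-values per summit, called per library. The submitters' processing notes name MACS2, BWA, SAMtools, deepTools and DESeq2 for them, and no input library is stated.

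Low counts were removed with filterByExpr (at least 10 counts, 15 in total), and TMM factors were used. The two-sided test was edgeR's robust quasi-likelihood test (version 4.0.16, R 4.3.3) with genotype alone in the design, adjusted by Benjamini-Hochberg over all genes tested, at a threshold of 0.05. The SE is the log2 fold change divided by the square root of F, and 95% intervals use the fit's degrees of freedom. The test was also run on simulated counts with known changes. No simulated library was made to stand apart, so that run says nothing about a library like control replicate 1. Likeness of profiles used log2 CPM with a prior count of 2. The text names all 10 genes, per list and direction the 2 called genes of smallest adjusted p, or the most abundant where none was called, and the nearest profiles. Further genes (Il1r1, Chuk, Map3k14, Ccr2, Ackr3, Ppbp, Pf4, Cxcl9, Itga4, Cxcr2, Il1a, Il1b, Nfkb1 and Nfkb2) and the 4-fold criterion were chosen after the values were seen. Alternatives were library size alone, upper-quartile factors, DESeq2 1.42.0, no count filter, the replicate number as a block, and each library left out, and for ChIP a -log10 q of at least 2, the summit inside the gene, and genes widened by 5 kb.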

Additional observations from a re-analysis of the deposited data

How the results depend on the processing

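Of the 10 targets, Vcam1 kept its call under every alternative run. Ccl2, at -0.00 in the main fit and thus without a direction, was at 0.62 with library size alone. It was at 0.09 with upper-quartile factors and 0.02 without the count filter, and passed in none of these fits. The direction of Cxcl10 turned to 0.17 with library size alone and 0.30 with the replicate block. Library size alone also turned Nfkbia and Chuk to 0.05, Ikbkg to 0.01, Bcl2l1 to 0.14, Ccl9 to 0.10 and Itga4 to 0.44. On that scale the median of all genes tested was 0.60. Leaving out 1 library gave log2 fold changes from -1.12 to 0.36 for Ccl2, -1.10 to 1.54 for Cxcl10, -0.20 to 1.16 for Icam1, -2.69 to 1.21 for Tnfaip3, -1.56 to 0.03 for Nfkbiz and -0.37 to 0.12 for Itga4. Targets called lower numbered 0 with library size alone and 2 with DESeq2, where 4.08% and 15.9% of all genes were called lower. Without 1 library, 1 to 6 of the targets were called, 1 to 4 higher and 0 to 2 lower. Over all genes 2236 to 4921 were called in these fits (14.4% to 31.3%). Of these, 1119 to 2407 were higher (7.10% to 15.3% of all genes) and 1104 to 2514 lower (7.11% to 16.0%). Library size alone gave 8328 calls over all genes (55.0%), 7711 higher (50.9%) and 617 lower (4.08%). For the pathway lists and chemokine family together, 25 genes were called, 11 higher and 14 lower, where 25.5% of all genes were called. These counts were 55, 51 and 4 with library size alone, and 16 to 36, 6 to 18 and 8 to 18 without 1 library. The shares of all genes moved between these settings too, as given above, so the counts are not read as a result about the pathway. Of 25 other named genes called, 13 were called in every fit without 1 library. The causes of these differences between settings were not tested. Same-numbered libraries of the 2 genotypes had correlated deviations of 0.11, 0.05 and 0.09, each the highest for that library, which is a hint from the data and not the design, so the numbers were not taken as pairs. With the replicate block, 3 targets were called, the call of Il33 being lost (edgeR adjusted p = 0.0575), and 3468 genes in all. Among the other named genes the block ended the calls of Map3k14, Ccr2, Ackr3 and Ppbp and brought Rela past the threshold (0.0413). The 3 ChIP alternatives gave the same number of target genes with a region. Depth limits Ccl2, Cxcl2 and Il33 most, at 105 counts or fewer in each library.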

Other observations

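Genes other than the 10 targets that stood apart in control replicate 1 were taken among those with at least 10 CPM there and 3 counts in each other control, a criterion chosen after the values were seen. Mt1, a metallothionein gene, had 72.2, 27.7 and 44.8 CPM in the knockouts, against 946 CPM in control replicate 1 and 8.58 and 7.92 CPM in the other controls. Among the others, the orphan receptor gene Nr4a1 stood 61.2 times above the higher of the other controls, the antiproliferative gene Btg2 52.9 times and the stress factor gene Atf3 52.7 times. The acute phase genes Saa2 and Saa1 stood 33.6 and 24.7 times above, with knockout means of 5.90 and 18.6 CPM, and Lcn2, one of the other NF-kB targets counted above, 32.8 times. No explanation of that library was tested.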
